A study of Sus scrofa with 24 samples.

Results

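The Hedgehog genes described here are the ligands IHH and DHH, the receptor PTCH1, the signal transducer SMO, the transcription factors GLI1, GLI2 and GLI3, and the ligand-binding inhibitor HHIP. They were chosen by symbol, and all 8 were found among the 18753 genes measured in pig ovary. All 8 also passed the filter on low counts that left 15699 genes for testing.

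Ovaries came from healthy sows of the Chenghua breed, with 3 sows at each of 4 stages and 1 mRNA library per sow, 12 libraries in all. Day 3 is postnatal day 3, Puberty is postnatal day 120 at the entry into puberty, Year 1 is sexual maturity at 1 year of age, and Pregnancy is day 105 of pregnancy. The sows shared housing and a similar level of feeding, and no treatment or genetic change is named for any stage. Frozen ovary fragments were used, so a library need not hold every structure of its ovary, and the labels do not give the phase of the oestrous cycle at Year 1.

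Hedgehog ligands are secreted proteins that bind the receptor Patched, which otherwise keeps the membrane protein Smoothened inactive. Released Smoothened acts through the primary cilium on the GLI factors, which turn on target genes, among them PTCH1, GLI1 and HHIP themselves, so that these transcripts serve as common readouts of the pathway. In the mouse ovary, granulosa cells make the ligands, and the neighbouring theca and stromal cells carry the response. In bulk tissue, fewer cells of a type and less RNA per cell cannot be told apart.

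Library totals ran from 14615474 to 16187915 counts. Levels are given as TPM (transcript abundance that allows for transcript length and is scaled to a fixed total per library), and tests used edgeR on the counts per gene. The label ovary was checked against its defining markers: the summed TPM of 10 granulosa genes was at least 433 in each library, and that of 7 oocyte genes was 1164 to 1744 at Day 3. The oocyte sum was 8.16 to 167 in the later libraries. It was lowest in Year 1 replicate 2, where 5 of the 7 genes were at 0, then 18.9 in Year 1 replicate 3 and 26.5 in Pregnancy replicate 3. Lists of 4 gut epithelium and 4 cartilage genes, also checked, were highest at Day 3, at 10.6 to 22.7 and 18.6 to 44.2 TPM. Year 1 and Pregnancy each held unlike libraries. The summed TPM of 6 luteal genes (STAR, CYP11A1, HSD3B1, SCARB1, PTGFR and RLN2) was 24109 in Year 1 replicate 2, 20805 in Year 1 replicate 3 and 71855 in Pregnancy replicate 3. It was 867 in Year 1 replicate 1, 332 and 386 in the other Pregnancy libraries, 735 to 1508 at Puberty and 144 to 183 at Day 3. Most of the value in Pregnancy replicate 3 was RLN2, the hormone relaxin, at 49365 TPM. Counts of Hedgehog and pathway genes called in Pregnancy against Day 3 are given with and without these libraries. At Year 1, leaving them out keeps 1 library. Calls there hold no spread between Year 1 sows and cannot show a difference between stages. The part of luteal tissue in these libraries was not tested.

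IHH, Indian hedgehog, was nearly undetected at Day 3 and was among the better expressed members from Puberty on, except in the luteal-rich libraries of Year 1. Its TPM was 0, 0.11 and 0.38 at Day 3, which rest on 0, 2 and 8 counts, and 115.26, 76.47 and 83.70 at Puberty. It was 84.90, 0.13 and 0.55 at Year 1 and 39.55, 74.47 and 17.15 in Pregnancy. The Puberty and Day 3 libraries were separated by a wide gap, whereas Year 1 split into 1 library at the Puberty level and 2 libraries with 3 and 13 counts, close to Day 3. The 0 counts of Day 3 replicate 1 allow up to 3 counts, or 0.156 CPM (counts scaled to the library's effective total), for counting error only. Stage means fell in the order Puberty (91.8 ± 20.6 TPM, SD, n = 3), Pregnancy (43.7 ± 28.9), Year 1 (28.5 ± 48.8) and Day 3 (0.163 ± 0.196). Neighbours among Puberty, Pregnancy and Year 1 did not differ beyond their spread in edgeR's test (adjusted p = 0.924 and 0.779).

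DHH, Desert hedgehog, stayed low and much more even. Its TPM was 4.72, 4.65 and 6.31 at Day 3 and 3.93, 5.07 and 4.47 at Puberty. It was 7.99, 0.95 and 1.98 at Year 1 and 5.95, 5.86 and 2.58 in Pregnancy. The Year 1 libraries held both the highest and the lowest DHH value of the study, and the stages overlapped throughout (edgeR adjusted p = 0.848 over the 4 stages). SHH, Sonic hedgehog, was listed at 0 outside Puberty and at no more than 0.09 TPM there, and it did not pass the count filter.

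**Figure D1:**
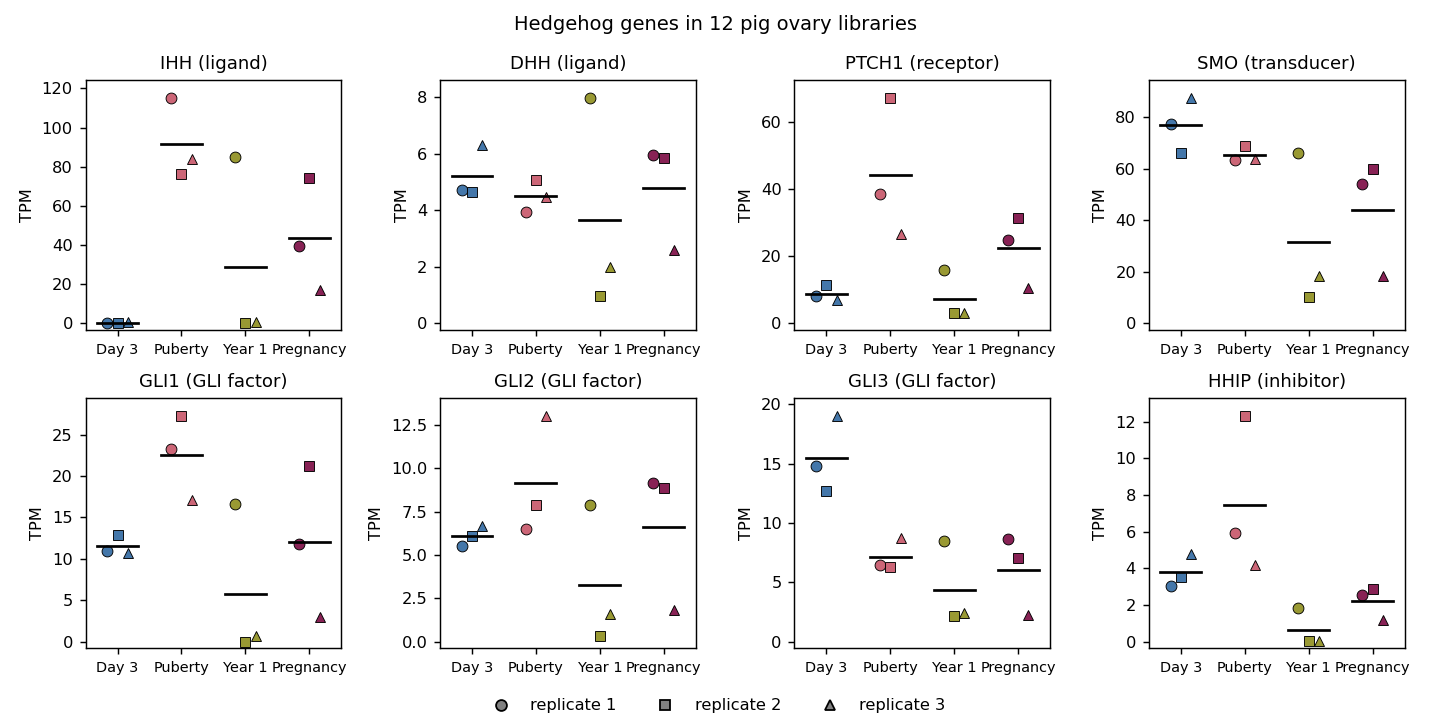
TPM of each Hedgehog gene in each library (points, shaped by replicate) at the 4 stages, with the stage mean of 3 libraries as a line; each panel has its own linear axis. IHH is at 0.38 TPM or lower at Day 3 and at 76.47 or higher at Puberty, and Year 1 replicate 1 sits above replicates 2 and 3 for every gene.

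PTCH1 encodes Patched, at once the receptor, a brake on the pathway and one of its targets. Its TPM was 8.21, 11.28 and 6.80 at Day 3 and 38.62, 67.33 and 26.65 at Puberty. It was 15.87, 2.90 and 3.10 at Year 1 and 24.75, 31.55 and 10.61 in Pregnancy. Every Puberty library was above every Day 3 library and every Year 1 library, and replicates 2 and 3 of Year 1 were below Day 3. The order of stage means was Puberty (44.2 ± 20.9 TPM, SD, n = 3), Pregnancy (22.3 ± 10.7), Day 3 (8.76 ± 2.29) and Year 1 (7.29 ± 7.43). Of these neighbours, only Pregnancy and Day 3 differed beyond their spread in edgeR's test (adjusted p = 0.0306). Puberty and Pregnancy (0.792) and Day 3 and Year 1 (0.618) did not. Between Day 3 and Year 1 the sign depended on the scale, with an edgeR log2 change of 0.37 ± 0.59 (SE) at Year 1.

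SMO, the membrane protein that Patched holds in check, was the most abundant member at Day 3. Its TPM was 77.30, 66.14 and 87.59 at Day 3 and 63.34, 69.03 and 63.67 at Puberty. It was 66.16, 10.20 and 18.17 at Year 1 and 53.96, 59.90 and 18.49 in Pregnancy. SMO thus lay between 53.96 and 87.59 TPM in 9 libraries and between 10.20 and 18.49 TPM in the 3 luteal-rich ones. Its stage means ran from 77.0 ± 10.7 TPM at Day 3 to 31.5 ± 30.3 TPM at Year 1, and no pair of neighbouring stages passed the test. The sign between Puberty and Day 3 depended on the scale, since mean TPM was lower at Puberty while the edgeR log2 change was 0.10 ± 0.53 (SE).

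HHIP, a membrane protein that binds and sequesters the ligands, is also a target of the pathway. Its TPM was 3.04, 3.52 and 4.79 at Day 3 and 5.94, 12.30 and 4.18 at Puberty. It was 1.82, 0.05 and 0.04 at Year 1 and 2.57, 2.87 and 1.18 in Pregnancy. All Year 1 libraries were below all libraries of Day 3 and Puberty, and replicates 2 and 3 of Year 1 were close to 0. The order of stage means was Puberty (7.47 ± 4.27 TPM, SD, n = 3), Day 3 (3.78 ± 0.904), Pregnancy (2.21 ± 0.902) and Year 1 (0.637 ± 1.02). No neighbours in this order differed beyond their spread in edgeR's test (adjusted p = 0.328, 0.937 and 0.255).

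GLI1 is an activator and the target most often read as a sign of pathway activity. Its TPM was 10.94, 12.85 and 10.72 at Day 3 and 23.24, 27.23 and 17.09 at Puberty. It was 16.68, 0 and 0.70 at Year 1 and 11.83, 21.21 and 2.93 in Pregnancy. Puberty was above Day 3 without overlap, and GLI1 was not counted at all in Year 1 replicate 2, where 0 counts allow up to 3 counts, or 0.255 CPM.

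GLI2, which acts mainly as an activator in mice, was at 5.49, 6.07 and 6.67 TPM at Day 3 and 6.49, 7.88 and 13.00 TPM at Puberty. It was at 7.91, 0.35 and 1.59 TPM at Year 1 and 9.13, 8.88 and 1.84 TPM in Pregnancy. Puberty and Day 3 overlapped on the TPM scale, and the lowest 3 values were those of the luteal-rich libraries.

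GLI3, which in mice is mostly cut into a repressor when no ligand is present, had the opposite order between the first 2 stages. Its TPM was 14.78, 12.67 and 18.99 at Day 3 and 6.46, 6.30 and 8.75 at Puberty. It was 8.46, 2.18 and 2.43 at Year 1 and 8.65, 7.08 and 2.27 in Pregnancy. On the TPM scale every Day 3 library was above every library of the later stages, while on the CPM scale Day 3 replicate 2 (55.23) was below Pregnancy replicate 1 (56.79). Stage means were 15.5 ± 3.22 TPM (SD, n = 3) at Day 3, 7.17 ± 1.37 at Puberty, 6.00 ± 3.32 in Pregnancy and 4.36 ± 3.56 at Year 1. No neighbours in this order differed beyond their spread in edgeR's test (adjusted p = 0.248, 0.995 and 0.614).

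On the Sscrofa11.1 assembly, with positions as in the RefSeq annotation, IHH spans 121083750 to 121090548 on the minus strand of chromosome 15, and GLI2 spans 30312528 to 30580272 on its plus strand. DHH spans 15114524 to 15119610 on the minus strand of chromosome 5, and GLI1 spans 22736325 to 22747421 on its plus strand. PTCH1 spans 26627165 to 26703225 on the plus strand of chromosome 10. SMO spans 19450730 to 19478796 on the minus strand of chromosome 18, and GLI3 spans 52403463 to 52697906 on its plus strand. HHIP spans 83583735 to 83678368 on the minus strand of chromosome 8. Values are per whole gene, over exons and untranslated regions, and isoforms were not separated.

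The test of any difference among the 4 stages called 2 of the 8 members, IHH and PTCH1, while 46.0% of all genes tested were called. PTCH1 had an adjusted p of 0.0118 by edgeR and stayed past the threshold of 0.05 whichever library was left out, at up to 0.0393. IHH had an adjusted p of 0.0307, and its call was lost when any Day 3 library, Puberty replicate 1 or Puberty replicate 2 was left out (up to 0.114). HHIP came next at 0.0978, and the other members were at 0.214 to 0.848. With Year 1 replicate 1 left out the same test called 7 members, beside 65.9% of all genes. With Year 1 replicates 2 and 3 and Pregnancy replicate 3 left out it also called 7, beside 53.0%.

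Between Day 3 and Puberty, transcripts of the ligand IHH and of the receptor and target PTCH1 rose. The log2 change of IHH was 9.37 ± 2.22 (SE), with an adjusted p of 0.0109 by edgeR. The log2 change of PTCH1 was 2.66 ± 0.62, a 6.33-fold rise, with an adjusted p of 0.0103. The test called these 2 of the 8 members, against 28.7% of all genes tested, and the median log2 change over the members was 1.12 beside 0.04 over all genes. The size of the IHH change rests on the 10 counts of Day 3, and its call was lost without Day 3 replicate 2 (adjusted p = 0.0517).

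The remaining members moved by less, and their calls depended on how the spread was estimated. In the test that pools the spread of all 4 stages, GLI1 was at 1.33 ± 1.26, HHIP at 1.34 ± 0.98, GLI2 at 0.92 ± 0.80 and GLI3 at -0.79 ± 0.49 (log2 change ± SE), with edgeR adjusted p of 0.248 to 0.455. With only the Day 3 and Puberty libraries fitted, the spread of the uneven Year 1 and Pregnancy libraries did not enter, and 6 of the 8 members were called, beside 51.2% of all genes tested. In that fit GLI1 rose by 1.33 ± 0.20 (edgeR adjusted p = 0.00161), HHIP by 1.34 ± 0.40 (0.0266) and GLI2 by 0.91 ± 0.24 (0.0165). GLI3 fell, at a log2 change of -0.79 ± 0.18 (0.00993). DHH, at 0.11 ± 0.25, and SMO, at 0.09 ± 0.13, did not pass in either fit. In the authors' deposited table of 18753 genes, 6 members and 8532 genes in all had a q-value under 0.05 between Day 3 and Puberty. Of these members, 5 were higher at Puberty and 1 lower. The same threshold took in 1 member for Year 1 against Puberty, among 1980 genes. It took in 2 for Year 1 against Day 3, among 8607, and 2 for Pregnancy against Day 3, among 7241. For Pregnancy against Year 1 and against Puberty it took in 0, among 779 and 82 genes.

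Markers of several ovarian cell types moved between the same stages. Of the markers tested, 5 of 10 granulosa genes, 6 of 8 theca genes and 6 of 8 smooth muscle genes rose at Puberty and none fell, and 6 of 7 oocyte genes fell. The theca list shares STAR, CYP11A1 and HSD3B1 with the luteal list, so it is not particular to theca cells. Among other lists, 3 of 4 surface epithelium genes and 3 of 6 motile cilia genes fell and none rose. Among all genes 28.7% were called, 1807 higher and 2702 lower. Summed granulosa TPM went from 433 to 527 at Day 3 to 2327 to 9577 at Puberty, and summed theca TPM from 218 to 308 to 2532 to 3986. Summed smooth muscle TPM went from 478 to 743 to 1972 to 3005, while summed oocyte TPM went from 1164 to 1744 down to 117 to 167. None of the granulosa, theca or smooth muscle genes was listed at 0 at either stage. The part of these markers in the Hedgehog changes was not tested.

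**Figure D2:**
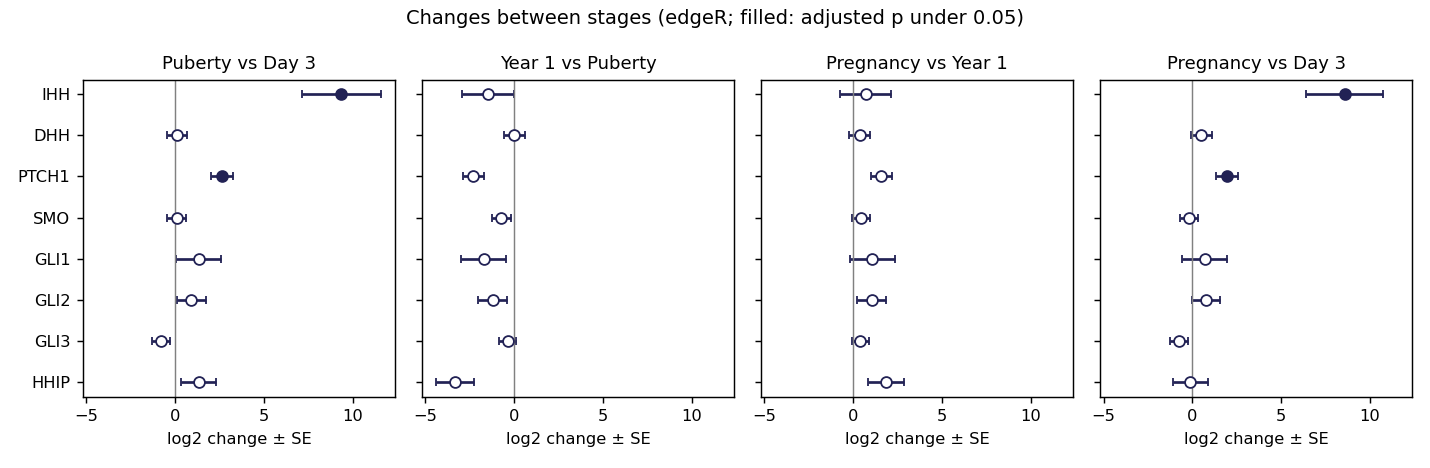
Log2 change with its standard error for each Hedgehog gene in 4 comparisons of stages, from the edgeR test fitted on all 12 libraries; filled points have an adjusted p under 0.05. Filled points are IHH and PTCH1 for Puberty against Day 3 and for Pregnancy against Day 3.

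From Puberty to Year 1 the test called 0 of the 8 members and 0.0255% of all genes, although 2 members had an unadjusted edgeR p under 0.05. These were PTCH1, with a log2 change of -2.29 ± 0.61 (adjusted p = 0.0657), and HHIP, with -3.31 ± 1.07 (adjusted p = 0.0822). Both were lower in all Year 1 libraries than in any Puberty library. DESeq2 called the same pair, beside 21.0% of all genes, and limma voom with quality weights called all 8 members, beside 59.6%. The median log2 change over the members was -1.34, beside -0.03 over all genes.

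The outcome of this comparison differed with the libraries kept, both in Year 1 and in Pregnancy. Without Year 1 replicate 1, edgeR called 6 members, beside 38.3% of all genes, with log2 changes of -7.53 ± 0.95 for IHH, -6.79 ± 0.70 for HHIP, -5.50 ± 1.09 for GLI1, -3.32 ± 0.51 for PTCH1, -2.70 ± 0.73 for GLI2 and -1.64 ± 0.41 for SMO. Their edgeR adjusted p ran from 0.000403 to 0.0178. With Pregnancy replicate 3 left out as well, all 8 members were called lower, beside 51.6% of all genes called in either direction. With Year 1 represented by replicate 1 alone, after replicates 2 and 3 and Pregnancy replicate 3 were left out, none of the 8 passed in edgeR, beside 0.00613% of all genes, and 3 members had an unadjusted p under 0.05. IHH was then at 0.10 ± 0.49 (adjusted p = 0.932), GLI1 at -0.20 ± 0.35 (0.792) and PTCH1 at -1.26 ± 0.50 (0.283), with the lone library assumed to vary like the others in edgeR. Leaving out Pregnancy replicate 3 alone added 1 call, PTCH1 (-2.27 ± 0.58, 0.0334), beside 16.7% of all genes.

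Against Day 3, Year 1 had 1 member called, IHH, at a log2 change of 7.89 ± 2.13 (edgeR adjusted p = 0.0118), where 48.0% of all genes were called. That value rested on Year 1 replicate 1, since without it IHH was at 1.82 ± 1.14 (0.19). The same fit without Year 1 replicate 1 called 5 other members, all lower at Year 1 than at Day 3, beside 58.9% of all genes. These were HHIP at -5.47 ± 0.68, GLI1 at -4.19 ± 1.04, GLI3 at -1.87 ± 0.44, GLI2 at -1.80 ± 0.70 and SMO at -1.57 ± 0.41. The direction turned with the libraries that stood for Year 1. A fit that keeps replicate 1 alone, chosen after seeing the data, holds no spread between Year 1 sows. Its calls therefore cannot show a difference between stages. With replicate 1 alone, and Pregnancy replicate 3 left out, the 5 members called were all higher at Year 1 than at Day 3, beside 40.5% of all genes. IHH was then at a log2 change of 9.49, PTCH1 at 1.41, DHH at 1.20, GLI1 at 1.14 and GLI2 at 0.92. SMO was at 0.36, and GLI3 and HHIP were at -0.30 and -0.47. With Pregnancy replicate 3 alone left out, IHH and GLI3 (-1.13 ± 0.39, 0.0347) were called, beside 53.9%.

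In late pregnancy IHH and PTCH1 were again higher than at Day 3. IHH was at a log2 change of 8.58 ± 2.17 (edgeR adjusted p = 0.0127) and PTCH1 at 1.95 ± 0.60 (0.0306), and for both genes all Pregnancy libraries were above all Day 3 libraries on the log2 CPM scale. These 2 members were called where 34.0% of all genes were. The IHH call was lost without Day 3 replicate 1 or 2 (up to 0.0556). The PTCH1 call was lost without any 1 of the Day 3 libraries, Pregnancy replicate 1 or Pregnancy replicate 2 (up to 0.105). Without the 3 luteal-rich libraries, 5 members were called higher, IHH, PTCH1, GLI1, GLI2 and DHH, beside 47.4% of all genes.

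Between Year 1 and Pregnancy the edgeR test called 0 members, beside 2.96% of all genes, with 1 member (PTCH1) at an unadjusted p under 0.05. All 8 log2 changes were positive, with a median of 0.87 beside 0.05 over all genes. DESeq2 called none, beside 18.5% of all genes, and limma voom called all 8, beside 56.2%. Without Year 1 replicate 1 edgeR called 7, all higher in Pregnancy, beside 30.6%, led by IHH at 6.75 ± 0.92 (adjusted p = 0.00143). With Year 1 represented by replicate 1 alone, and Pregnancy replicate 3 left out, IHH was instead at -0.52. In that setting DHH was at -0.42, SMO at -0.19 and GLI3 at -0.07, while the remaining members stayed positive. Between Puberty and Pregnancy edgeR called 0 members and 0.00% of all genes, with no member and 1156 genes at an unadjusted p under 0.05. DESeq2 and limma voom called no member there either and called 0.618% and 0.745% of all genes. All of these comparisons draw on the same 4 stages, and those that share a stage share its libraries.

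The libraries of Year 1 and of Pregnancy differed among themselves. In Year 1 replicate 2 all 8 members were lower than in replicate 1, by a median of -3.32 on the log2 CPM scale, while 51.9% of all genes tested were lower. In Year 1 replicate 3 all 8 were again lower than in replicate 1, with a median of -2.01, beside 50.7% of all genes. In Pregnancy replicate 3 all 8 were lower than in replicate 1 and than in replicate 2, with medians of -1.25 and -1.55, beside 51.8% and 52.2% of all genes. Pregnancy replicates 1 and 2 were alike, with 5 members higher and 3 lower in replicate 2 and a median of 0.18. These differences are between single sows and carry no test.

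The spread of IHH and GLI1 at Year 1 was extreme among all genes. The SD of log2 CPM over the 3 Year 1 libraries was 4.48 for IHH, and 0.159% of genes tested had a larger one. It was 4.24 for GLI1, exceeded by 0.236% of genes, and 2.66 for HHIP, exceeded by 1.81%, against a median of 0.46 over all genes. In Year 1 replicates 2 and 3 these SDs rest on 3 and 13 counts for IHH and 0 and 28 for GLI1. For HHIP they rest on 5 and 4 counts. Their size therefore depends on the prior count of 2. At Puberty the most variable member was HHIP (SD 0.81) and the least variable was SMO (SD 0.09), beside a median of 0.25. At Day 3 every member but IHH had an SD of 0.37 or lower.

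**Figure D3:**
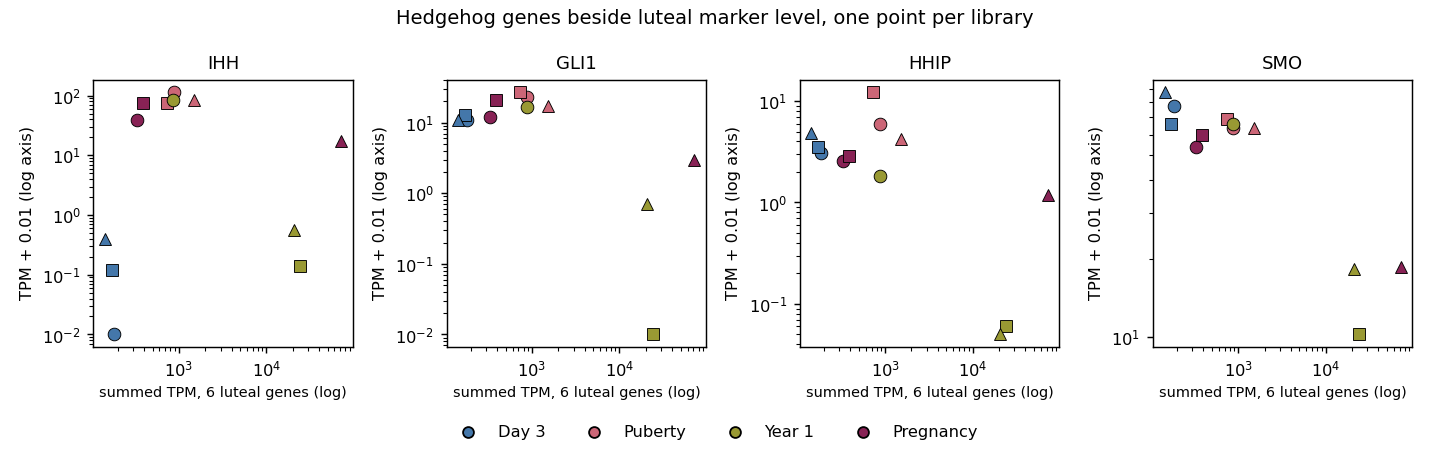
TPM of IHH, GLI1, HHIP and SMO (vertical, plus 0.01, log axis) against the summed TPM of 6 luteal marker genes (horizontal, log axis), 1 point per library, coloured by stage and shaped by replicate as in the plot of TPM by stage. The 3 libraries with 20805 or more summed luteal TPM have the 3 lowest values of SMO and HHIP, and for IHH the Day 3 libraries are low at 144 to 183 luteal TPM.

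The levels of the 3 luteal-rich libraries were not uniform. Pregnancy replicate 3 had the highest luteal sum, 71855 TPM, and kept IHH at 17.15, PTCH1 at 10.61 and HHIP at 1.18 TPM. In Year 1 replicates 2 and 3 these genes were at no more than 0.55, 3.10 and 0.05 TPM. Other members were close to the Year 1 pair there, with SMO at 18.49 against 10.20 and 18.17, GLI2 at 1.84 against 0.35 and 1.59, and GLI3 at 2.27 against 2.18 and 2.43 TPM. Summed granulosa TPM was 712 and 924 in the Year 1 pair, against 14783 in Year 1 replicate 1. It was 1026 in Pregnancy replicate 3, close to the 1071 and 1203 of Pregnancy replicates 1 and 2. The part of granulosa cells in these differences was not tested.

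Ratios of TPM within a library compare members without regard to library scaling. IHH made up 0% to 5.68% of the summed IHH and DHH TPM at Day 3 and 93.8% to 96.7% at Puberty. It made up 91.4% in Year 1 replicate 1, 12% and 21.7% in replicates 2 and 3, and 86.9% to 92.7% in Pregnancy. The predominant ligand transcript was therefore DHH in the Day 3 libraries and in 2 Year 1 libraries, and IHH in the other 7.

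Among the GLI transcripts, GLI3 held 40.1% to 52.2% of the summed GLI TPM at Day 3 and 15.2% to 22.5% at Puberty. GLI1 held 29.5% to 40.7% at Day 3 and 44.0% to 65.8% at Puberty. In Year 1 replicates 2 and 3 GLI3 was the largest share, at 86.2% and 51.5%, while in Pregnancy GLI1 held 40.0% to 57.1%. The share of GLI2 ranged from 13.8% to 33.7% over the 12 libraries, and its ranges at Day 3 and Puberty overlapped.

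The ratio of PTCH1 to SMO was 0.0776 to 0.171 at Day 3 and 0.419 to 0.975 at Puberty, and it was 0.459 to 0.574 in Pregnancy. It was 0.171 to 0.284 at Year 1, replicate 1 included. The ratio of HHIP to PTCH1, both targets, was 0.312 to 0.704 at Day 3, 0.154 to 0.183 at Puberty and 0.0910 to 0.111 in Pregnancy, so that these 3 stages did not overlap. At Year 1 it was 0.115 in replicate 1 and 0.0172 and 0.0129 in replicates 2 and 3, where HHIP was close to 0. These ratios were chosen with the values known and are given without a test.

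**Figure D4:**
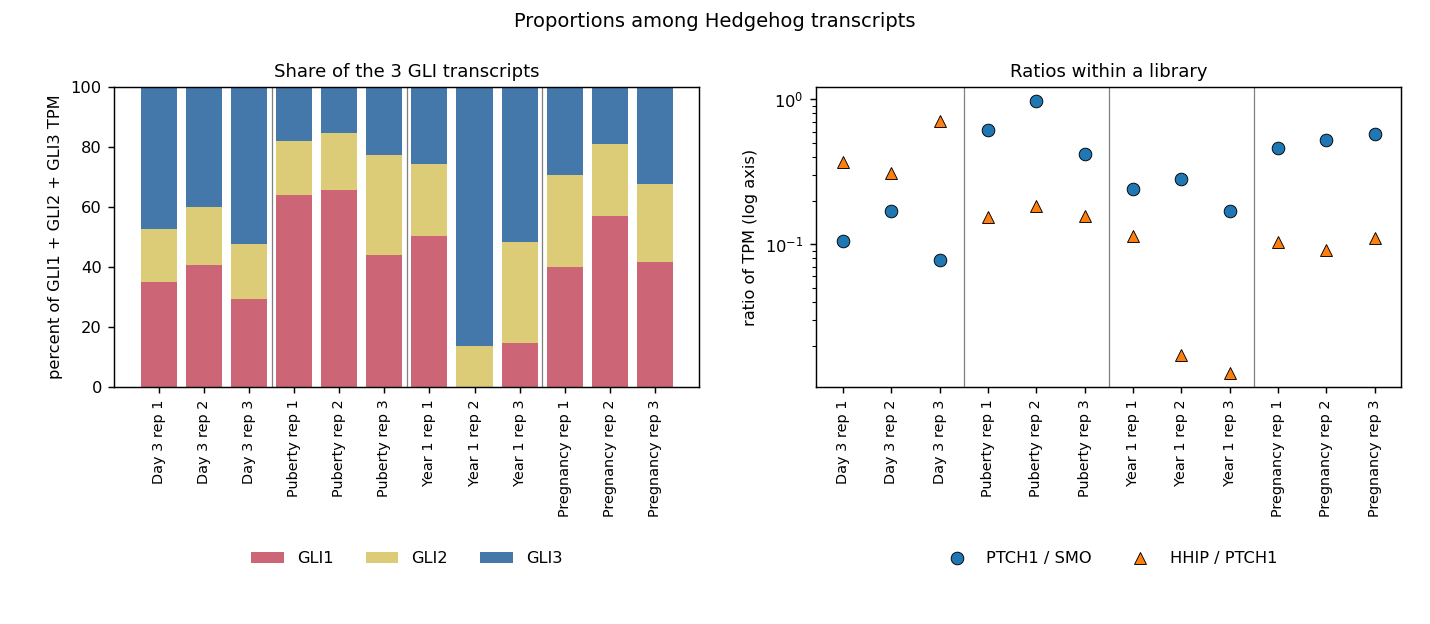
Left, the share of GLI1, GLI2 and GLI3 in their summed TPM in each library; right, the ratios of PTCH1 to SMO and HHIP to PTCH1 on a log axis. GLI3 is the largest or nearly the largest share at Day 3 (40.1% to 52.2%) and in Year 1 replicates 2 and 3 (86.2% and 51.5%).

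The wider pathway was read from 45 genes in 5 lists, of which 44 were tested. Between Day 3 and Puberty, 12 of them passed edgeR's threshold, 6 higher and 6 lower, a share close to the 28.7% of all genes called. Those changes went in both directions within each list except the co-receptors.

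Among genes for making and releasing the ligand, 1 rose and 1 fell. HHAT, the enzyme that attaches palmitate to Hedgehog proteins, was at 25.75, 35.26 and 33.91 TPM at Day 3 and at 4.79, 7.42 and 5.57 TPM at Puberty. Its TPM stayed between 2.17 and 5.54 in all Year 1 and Pregnancy libraries. HHAT fell by a log2 change of -2.09 ± 0.32 at Puberty (edgeR adjusted p = 0.00155). SCUBE3, a secreted protein of a family that helps lipid-bearing ligands leave the cell, was at 0.94 to 1.63 TPM at Day 3 and 7.43 to 19.33 TPM at Puberty and rose (3.72 ± 0.91, 0.0125). HHAT and SCUBE3 were the 2 called among 6 tested genes of this list, and the luteal-rich Year 1 libraries held SCUBE3 at only 0.14 and 0.35 TPM.

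Of 4 co-receptors, BOC fell and the others did not pass the test. BOC, which binds the ligand, was at 16.63, 14.49 and 15.08 TPM at Day 3 and 2.96, 2.70 and 2.58 TPM at Puberty, and no library of the later stages exceeded 3.02 TPM. Its log2 change at Puberty was -2.20 ± 0.45 (edgeR adjusted p = 0.00595). LRP2, the large endocytic receptor megalin, was at no more than 0.97 TPM in any library, with a log2 change of -2.03 ± 0.75 (0.0644). CDON, a relative of BOC, was at 12.91 to 24.67 TPM at Day 3 and 27.85 to 42.90 TPM at Puberty, without overlap, at 1.37 ± 0.56 (0.0924).

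Among 14 genes of signal transduction, 2 rose and 2 fell at Puberty. GPR161, a ciliary receptor that restrains the pathway through protein kinase A, was at 11.06 to 19.44 TPM at Day 3 and 3.39 to 4.38 TPM at Puberty, a log2 change of -1.57 ± 0.30 (edgeR adjusted p = 0.00426). CUL3, a ubiquitin ligase scaffold, also fell, with -0.70 ± 0.17 (0.0122). GRK2, a kinase that phosphorylates SMO, rose by 0.71 ± 0.14 (0.00543), and ULK3, a kinase reported to act on GLI proteins, rose by 0.65 ± 0.15 (0.00941). The median over the list was 0.32.

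Among 9 genes of the primary cilium, the organelle in which SMO acts, 1 rose and 1 fell. KIF3A, a subunit of the kinesin that builds cilia, was at 39.02, 42.61 and 39.59 TPM at Day 3 and at 13.03, 12.07 and 10.73 TPM at Puberty (-1.40 ± 0.18, edgeR adjusted p = 0.00068). TULP3, which carries GPR161 into cilia, rose by 0.62 ± 0.17 (0.0203). KIF3A remained at 5.38 to 10.84 TPM at Year 1 and in Pregnancy, including the luteal-rich libraries.

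Among 11 genes reported as GLI targets in other tissues, 2 rose and 1 fell at Puberty. CCND2, cyclin D2, rose by 3.37 ± 1.09 (edgeR adjusted p = 0.0405), and MYCN rose by 1.86 ± 0.54 (0.0262). NR2F1, a nuclear receptor, was at 181.59 to 279.78 TPM at Day 3 and 46.72 to 75.05 TPM at Puberty (-1.59 ± 0.36, 0.00881). PTHLH, a target of Indian hedgehog in the growth plate of mice, went the other way from the members: the luteal-rich libraries held 112.09, 211.32 and 90.22 TPM (Year 1 replicates 2 and 3, then Pregnancy replicate 3), and the other 9 held no more than 8.62 TPM. Its log2 change from Day 3 to Year 1 was 7.48 ± 1.82 (0.00704). Without the luteal-rich libraries, which leaves 1 Year 1 library and no spread between sows there, it was 3.42.

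At Year 1, against Day 3, 1 of 6 ligand-release genes was called (HHAT, lower) and 1 of 4 co-receptors (BOC, lower). So were 8 of 14 transduction genes (5 higher, 3 lower), 6 of 9 cilium genes (2 higher, 4 lower) and 5 of 11 reported targets (CCND2, FOXF1 and PTHLH higher, NR2F1 and BCL2 lower). Together 21 of the 44 were called, close to the 48.0% of all genes. In Pregnancy, against Day 3, HHAT, BOC, GPR161, CUL3, KIF3A, IFT172 and NR2F1 were called lower. SCUBE3, GRK2, ULK3, TULP3, NR2F2 and PTHLH were called higher there. These 13 of 44 stood beside 34.0% of all genes, and without the luteal-rich libraries 22 were called, beside 47.4%. Without Pregnancy replicate 3 alone, PTHLH was at 2.01 ± 1.22 (edgeR adjusted p = 0.241).

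**Figure D5:**
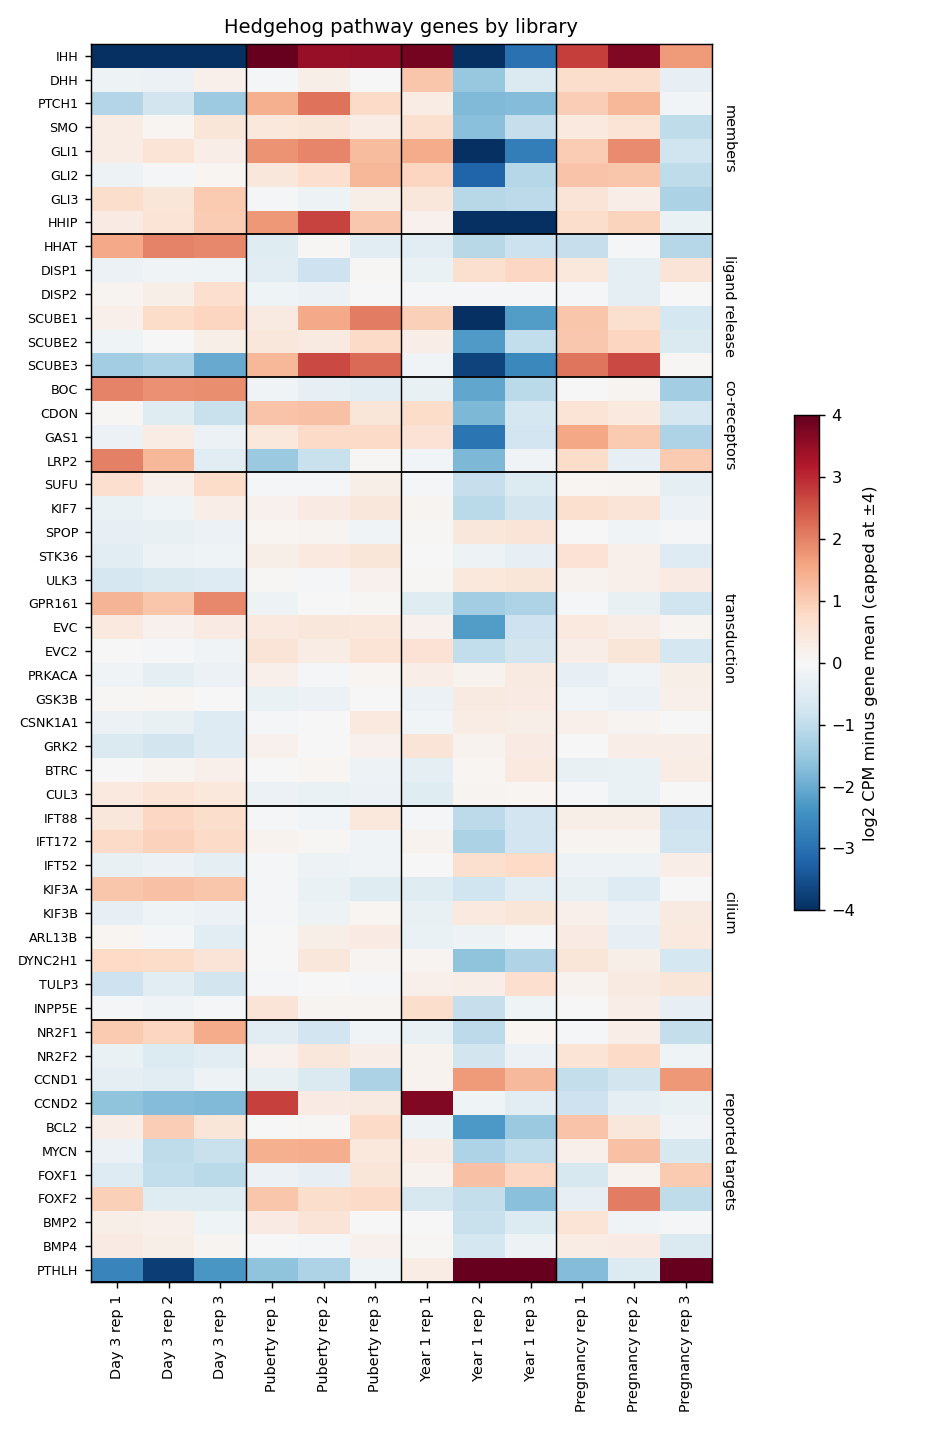
Log2 CPM of the 8 Hedgehog genes and 44 further pathway genes, each minus its own mean over the 12 libraries, by library (columns) and list (rows); colours are capped at 4 in either direction. IHH and SCUBE3 are low in the Day 3 libraries and in Year 1 replicates 2 and 3, while HHAT, BOC, GPR161 and KIF3A are high in the Day 3 libraries.

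The genes most like each member in pattern were found by the root mean square difference of log2 CPM, each centred on its mean, over the 12 libraries and 12268 genes. For IHH they included MOBP (difference 1.40) and INSL3 (1.46), beside a root mean square of 4.01 for IHH about its own mean. INSL3 is a hormone of theca cells, and MOBP is known from myelin. INSL3 was at 2643.29, 1996.78 and 988.91 TPM at Puberty, and at 3386.07, 2.19 and 14.33 TPM at Year 1, so it divided the Year 1 libraries as IHH did. The summed TPM of the 8 theca genes, INSL3 among them, went the other way at Year 1. That sum was 5066 in replicate 1 and 20660 and 18251 in replicates 2 and 3, and it includes STAR, CYP11A1 and HSD3B1 of the luteal list. At Day 3 INSL3 was at 11.85 to 59.33 TPM, where IHH was nearly undetected.

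For PTCH1 the nearest genes were HS3ST1 (0.35), an enzyme of heparan sulfate synthesis, PPM1K (0.40), a mitochondrial phosphatase, and CPED1 (0.40), beside 1.30 for PTCH1 itself. HS3ST1 was at 9.09 to 11.80 TPM at Day 3, 33.03 to 47.51 TPM at Puberty, and 30.54, 2.65 and 3.88 TPM at Year 1. For GLI1 they were ACSBG1 (0.58), MCOLN3 (0.67) and MFAP2 (0.67), a protein of microfibrils, beside 2.47. MFAP2 was at 276.16, 1.24 and 24.85 TPM at Year 1, against 16.68, 0 and 0.70 TPM for GLI1.

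For GLI2 the nearest were ANGPT4 (0.29), an angiopoietin, GAS1 (0.30), a Hedgehog co-receptor, and SCUBE2 (0.40), a protein of ligand release, beside 1.23. GAS1 and SCUBE2 are on the pathway lists, and GAS1 was at 120.90, 8.21 and 38.92 TPM at Year 1. For GLI3 they were LIMD2 (0.23), CBX2 (0.24), a Polycomb protein, and SLC9A5 (0.24), a sodium-proton exchanger, beside 0.73. CBX2 was at 14.55 to 17.58 TPM at Day 3 and no more than 9.66 TPM in the other libraries.

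For SMO the nearest were HAUS5 (0.16), a subunit of the augmin complex of the spindle, EBF4 (0.17) and VANGL2 (0.19), a planar polarity protein, beside 0.73. For HHIP they were DAPL1 (0.53), KIF5C (0.77), a kinesin, and EFNB3 (0.79), an ephrin, beside 2.11. DAPL1 was at 158.40, 1.47 and 3.30 TPM at Year 1, against 1.82, 0.05 and 0.04 TPM for HHIP. DHH was not searched, since its stage means ranged over only 0.68 on the log2 scale. These likenesses are descriptions over 12 libraries that share their depth range and their luteal-rich members.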

How the data were processed

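The 12 mRNA libraries were analysed; the 12 small RNA samples were not analysed here. Per the submitters' processing notes, the authors used Bowtie2 2.3.4.3, RSEM 1.3.1, DESeq2 1.4.5 and Sscrofa11.1. Per the labels' protocols, mRNA was captured with oligo(dT). Expected counts from RSEM were deposited for each gene and were rounded here to whole numbers. TPM was deposited too and served here for levels and ratios, without tests. TPM sums to a fixed total, so a few very abundant transcripts lower the TPM of all other genes in a library. Log2 fold changes and q-values by the authors stand in the same deposited table. Another 24 columns of per-sample values were not used.

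Genes were kept by filterByExpr with a minimum count of 10, scaled by TMM and tested with edgeR 4.0.16 (R 4.3.3), by the quasi-likelihood test with 1 term per stage over all 12 libraries, Benjamini-Hochberg adjustment over 15699 genes and a threshold of 0.05. P-values rest on the spread between sows, which can include differences between fragments. Log2 CPM used a prior count of 2. Alternatives were RLE and upper-quartile scaling, no count filter, a minimum count of 50, DESeq2 1.42.0, limma 3.58.1 (voom with quality weights), fits of only the 2 stages compared, a replicate block, and leaving out libraries. Scripts were tested on simulated data.

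Members and lists were chosen with earlier results of these data known. All members are named. Of each pathway list, the 2 genes with the lowest p over the 4 stages are named, as are those that a count of 5 or fewer refers to. Genes of like pattern are the 3 nearest to each member whose stage means range over at least 1 on the log2 scale, among genes whose mean log2 CPM is 1 or more. Some genes that these rules take in are not reported here. SHH, RLN2, CDON and the ratios were chosen after their values were seen. Intervals and limits for 0 counts cover counting error only. Within a stage, no pair of libraries came close to agreeing within sampling noise, the lowest chi-square per degree of freedom being 18.0.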

Additional observations from a re-analysis of the deposited data

How the results depend on the processing

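Of the 8 members, the number called over the 4 stages was 2, beside 46.0% of all genes. It became 3 with DESeq2, which added HHIP, and 8 with limma voom, beside 60.1% and 86.9%. It was also 8 without Year 1 replicate 1 and Pregnancy replicate 3, the pair below, beside 76.5%. Leaving out 1 library gave 1 to 7, beside 28.7% to 65.9%. Leaving out Year 1 replicates 2 and 3 and Pregnancy replicate 3, a setting chosen after seeing the data, leaves 1 Year 1 library. Its calls are not counted in what follows. For Puberty against Day 3, the count of 2 stood beside 28.7% of all genes. It became 6 with limma voom, 6 with only the 2 stages and 5 without the pair, beside 58.7%, 51.2% and 52.3%. It was 1 to 3 when 1 library was left out, beside 16.7% to 38.1%. For Year 1 against Puberty, the count of 0 became 2 with DESeq2, 8 with limma voom and 8 without the pair. The shares of all genes beside these were 21.0%, 59.6% and 51.6%. It was 0 to 6 when 1 library was left out, beside 0% to 38.3%. For Pregnancy against Year 1, the count of 0 became 8 with limma voom and 8 without the pair, beside 56.2% and 50% of all genes. It was 0 to 7 when 1 library was left out, beside 0% to 30.6%. For Year 1 against Day 3, the count of 1 stood beside 48.0% of all genes. It became 2 with DESeq2, 6 with limma voom and 6 without the pair, beside 53.8%, 72.8% and 67.6%. It became 0 with only the 2 stages, beside 44.6%, where IHH did not pass the filter. With the replicate block it was also 0, beside 45.3%. It was 1 to 5 when 1 library was left out, beside 35.2% to 58.9%. For Pregnancy against Day 3, the count of 2 stood beside 34.0% of all genes. It became 1 with upper-quartile scaling and 4 with limma voom, beside 31.1% and 55.4%. It was 0 to 2 when 1 library was left out, beside 20.8% to 44%. Pregnancy against Puberty stayed at 0 under each alternative run. The cause of these shifts was not tested.

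Some log2 changes changed sign with the libraries used. Without Year 1 replicates 2 and 3 and Pregnancy replicate 3, Year 1 against Puberty was at 0.10 for IHH, 0.25 for SMO and 0.48 for GLI3, and Pregnancy against Year 1 was at -0.52 for IHH, -0.42 for DHH, -0.19 for SMO and -0.07 for GLI3. The same setting gave 1.07 for DHH in Year 1 against Puberty and, in Year 1 against Day 3, 1.41 for PTCH1, 1.14 for GLI1, 0.92 for GLI2 and 0.36 for SMO. Without Year 1 replicate 1 and Pregnancy replicate 3, Year 1 against Puberty was at -7.54 for IHH and -1.66 for SMO, and Pregnancy against Year 1 was at 7.11 for IHH, 1.72 for DHH, 1.71 for SMO and 1.47 for GLI3. DHH in Year 1 against Puberty was at -0.06 with upper-quartile scaling, -0.83 with limma voom, -0.19 with the replicate block and -1.07 without the pair of libraries. PTCH1 in Year 1 against Day 3 was at -0.65 with limma voom and -0.67 without that pair. Leaving out 1 library gave -1.05 to 0.47 for DHH in Year 1 against Puberty, -0.09 to 1.44 for DHH in Pregnancy against Year 1, -0.68 to 0.73 for PTCH1 in Year 1 against Day 3 and -0.03 to 0.17 for SMO in Puberty against Day 3. With all libraries in the edgeR test, none of these changes passed the threshold.

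Correlations of deviations from the stage mean between same-numbered libraries of different stages ran from -0.39 to 0.40. Libraries of unlike number were not compared, so this range cannot show whether replicate numbers pair the libraries. With the replicate block, IHH in Puberty against Day 3 was at 9.48 and PTCH1 at 2.59, and the members called differed from those without it only in Year 1 against Day 3. Upper-quartile scaling moved the median of all genes from -0.03 to -0.17 for Year 1 against Puberty and from 0.03 to -0.20 for Year 1 against Day 3. Over the alternatives, genes called among all tested ran from 4544 to 13644 over the 4 stages, 2644 to 9222 for Puberty against Day 3, 0 to 9352 for Year 1 against Puberty, 0 to 8825 for Pregnancy against Year 1, 5583 to 11424 for Year 1 against Day 3, 3302 to 8703 for Pregnancy against Day 3 and 0 to 117 for Pregnancy against Puberty. Depth limits IHH at Day 3 and GLI1 and HHIP in Year 1 replicates 2 and 3, which rest on few counts.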
